A study of Mus musculus with 19 samples.

Results

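Clade B serpins are protease inhibitors that mostly stay inside the cell that makes them. A serpin offers an exposed stretch, the reactive centre loop, as bait. When a protease cuts the loop, the serpin folds the cut end into its own body and traps the enzyme. In epidermis, clade B serpins are best known for holding back cathepsins, granzymes, trypsin-like proteases and the proteases of neutrophils and mast cells, and several of them mark keratinocytes under stress. The genes described here are all genes of the deposited table whose symbol begins with Serpinb followed by a digit and whose counts summed to at least 10 over all libraries. They are 23 of 18521 genes in the table. A further 5 symbols of the family (Serpinb9c, Serpinb9d, Serpinb9f, Serpinb9g and Serpinb9h) stayed under 10 counts. Of the 23 genes, 21 passed the filter on low counts and were tested, and Serpinb3c and Serpinb9e did not.

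RNA was measured by poly-A selected sequencing of skin from 16 female mice in 19 libraries, and every mouse had the genotype Ptch1+/- K14-CreER2 p53fl/fl. In these mice 1 allele of the Hedgehog receptor gene Ptch1 is missing, and tamoxifen removes the floxed p53 gene (Trp53) in cells that use the keratin 14 promoter, so other skin cells keep it. The AFL group (3 mice) was induced with tamoxifen and x-rays and then had ablative fractional laser, which burns columns of tissue. The vismodegib group (4 mice) was induced likewise and then had topical vismodegib, an inhibitor of the Hedgehog signal transducer Smoothened. The BCC group (4 mice) was induced, carried early basal cell carcinoma and had no treatment. The healthy group (5 mice) had the same genotype and was not induced. For induction, mice were injected 3 times with 300 µg tamoxifen and irradiated with 4 Gy. The laser was given as 1 treatment and vismodegib as 8, and the samples are labelled as day 4. No mice given vehicle or a sham treatment are among the samples used here, so a treatment cannot be told apart from its handling. The mice of the AFL, vismodegib and BCC groups were 228 to 326 days old and healthy mice 128 to 137 days, so age and induction cannot be told apart either. Days since induction were 80 to 126 in AFL mice, 109 to 137 in vismodegib mice and 130 to 144 in BCC mice.

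Library totals lay between 27185921 and 33556611 expected counts. Trp53 was at 31.5 to 44.9 CPM (read counts scaled to a common library size with TMM factors) in AFL mice, 25.3 to 55.1 in vismodegib mice and 23.6 to 36.3 in BCC mice, against 94.0 to 143 in healthy mice, so every induced mouse was below every healthy mouse. Markers of basal keratinocytes were present in every mouse, as skin requires, with a summed level of 9699 CPM or more over 10 genes. Vismodegib mouse 9 stood apart from the rest: its TMM factor was 0.591, against 0.906 to 1.18 in the other 15 mice, and its wound keratinocyte genes summed to 122000 CPM, against 27390 to 34420 in the other vismodegib mice. Growing hair differed between mice of a group as well. The mean log2 CPM of 18 hair follicle genes was 8.64 in vismodegib mouse 6 and 8.58 in BCC mouse 3, against -0.77 to 3.81 in the other induced mice and 4.94 to 9.53 in healthy mice. Whole skin was sequenced, so fewer cells of a type and less RNA per cell cannot be told apart.

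The main pattern was a large rise of the Serpinb3 genes after vismodegib. Serpinb3a, Serpinb3b, Serpinb3c and Serpinb3d are neighbouring mouse copies that correspond to human SERPINB3 and SERPINB4, the squamous cell carcinoma antigens. The human proteins inhibit cathepsins of the papain family, cathepsin G and mast cell chymase, and mouse Serpinb3a inhibits both kinds of protease. In the RefSeq gene table of GRCm38.p6, used here for the order of genes only, 12 of the clade B genes lie next to one another on chromosome 1 (Serpinb5, Serpinb12, Serpinb13, Serpinb3a, Serpinb3d, Serpinb3b, Serpinb3c, Serpinb11, Serpinb7, Serpinb2, Serpinb10 and Serpinb8), with no other protein-coding gene between them. The other 11 lie on chromosome 13.

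The copies are alike enough that reads could be shared between them, and they also differ in the part that meets the protease. Over the longest reading frame of the GENCODE M21 transcripts, Serpinb3a and Serpinb3b were identical at 92.9% of aligned positions, Serpinb3b and Serpinb3c at 93.1%, and Serpinb3b and Serpinb3d at 87.4%. No stretch of 100 bases of the Serpinb3a frame occurred in Serpinb3b, but 7.0% of its stretches of 50 bases did. The stretch that codes for the hinge and the reactive centre loop is shown to let the bait regions be compared, in lower case and 5′ to 3′, with capitals at bases that differ from Serpinb3b in an alignment.
Serpinb3a: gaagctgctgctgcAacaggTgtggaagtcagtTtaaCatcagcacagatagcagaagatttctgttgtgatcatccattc
Serpinb3b: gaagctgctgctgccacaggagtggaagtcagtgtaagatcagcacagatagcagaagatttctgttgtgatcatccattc
Serpinb3c: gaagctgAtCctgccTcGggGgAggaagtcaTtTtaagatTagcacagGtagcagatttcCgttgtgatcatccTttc
Serpinb3d: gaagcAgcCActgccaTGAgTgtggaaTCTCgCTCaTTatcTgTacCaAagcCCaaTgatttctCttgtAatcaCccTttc
Serpinb3a differed from Serpinb3b at 4 aligned positions of this stretch, Serpinb3c at 15 (3 of them a missing codon), and Serpinb3d at 28.

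Serpinb3b was the most abundant copy in every mouse. It was at 49.8, 56.2 and 114 CPM in AFL mice, at 529, 146, 2140 and 485 CPM in vismodegib mice, at 8.34, 44.9, 76.4 and 18.4 CPM in BCC mice, and at 4.73, 2.83, 5.13, 9.06 and 9.90 CPM in healthy mice. Every vismodegib mouse was above every mouse of the other 3 groups, while AFL and BCC mice overlapped. Against BCC, Serpinb3b rose 22.3-fold after vismodegib (log2 fold change 4.48, SE 0.82, edgeR quasi-likelihood adjusted p = 0.0024). The log2 fold change of AFL against BCC was 0.99 (SE 0.76, edgeR adjusted p = 0.514).

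Serpinb3a moved by more than Serpinb3b. It was at 2.47, 4.12 and 8.72 CPM in AFL mice, at 226, 39.7, 1186 and 110.0 CPM in vismodegib mice, at 0.492, 5.67, 7.09 and 0.981 CPM in BCC mice, and between 0.0276 and 0.116 CPM in the 5 healthy mice, where it had 12 counts in all. The levels of vismodegib mice and of healthy mice each lay clear of those of the other groups, and AFL and BCC mice overlapped. Against BCC, Serpinb3a rose 110-fold after vismodegib (log2 fold change 6.78, SE 1.14, edgeR adjusted p = 0.00165). Against healthy skin, Serpinb3a rose 62.0-fold in BCC (log2 fold change 5.95, SE 1.17, edgeR adjusted p = 0.00931), and it was the single clade B gene that passed the test in that comparison.

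**Figure D1:**
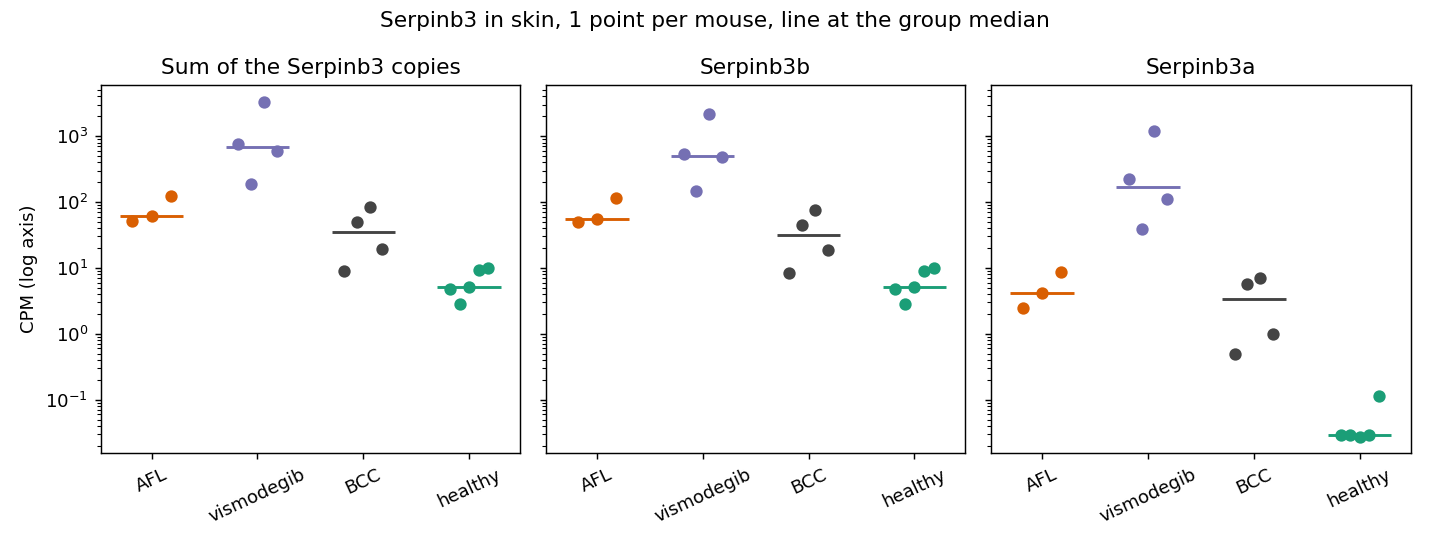
Level of the summed Serpinb3 copies, of Serpinb3b and of Serpinb3a in CPM on a log axis, 1 point per mouse, with a line at the group median. The 4 vismodegib mice sit above all other mice in each panel, and healthy mice sit near the foot of the Serpinb3a panel, at 0.0276 to 0.116 CPM.

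The other copies were rare. Serpinb3d was at 0, 0.0915 and 0.341 CPM in AFL mice and at 0.376, 0.183, 8.18 and 0.267 CPM in vismodegib mice, with 0 counts in all 4 BCC mice and 1 count in healthy mice. With a floor of 3 counts over the BCC group, it was at least 59.6-fold higher after vismodegib. Serpinb3d passed the low-count filter only through the treated mice, so its call in the fit (edgeR adjusted p = 0.00863) is given as a description, and the counts of members that rose after vismodegib are also given without it. Serpinb3c had 4 counts in AFL mice and 77 in vismodegib mice, against 1 in BCC mice and 7 in healthy mice. The ratio of vismodegib to BCC was 73.2 for Serpinb3c, with a counting interval (95%) of 12.7 to 2930. Most of the Serpinb3c and Serpinb3d counts came from mouse 9, at 2.92 and 8.18 CPM. These intervals and lower bounds account for counting error alone.

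Counted as a single gene, the Serpinb3 copies reached 52.4, 60.4 and 123 CPM in AFL mice, 755, 186, 3337 and 596 CPM in vismodegib mice, 8.83, 50.5, 83.5 and 19.4 CPM in BCC mice, and 4.76, 2.86, 5.19, 9.18 and 10.1 CPM in healthy mice. The lowest vismodegib mouse was above the highest mouse of the other groups. The sum rose after vismodegib against BCC, at means of 1219 and 40.6 CPM (log2 fold change 4.91, SE 0.88, edgeR adjusted p = 0.00211) and 190-fold against healthy skin (log2 fold change 7.57, SE 0.90, edgeR adjusted p = 6.99e-05). It was lower in AFL than in vismodegib mice (log2 fold change -3.95, SE 0.95, edgeR adjusted p = 0.0164) and rose 12.3-fold in AFL mice against healthy mice (log2 fold change 3.62, SE 0.78, edgeR adjusted p = 0.00647). The differences of AFL from BCC (0.96 on the log2 scale, edgeR adjusted p = 0.556) and of BCC from healthy skin (2.66, edgeR adjusted p = 0.0691) did not pass.

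The rises after vismodegib were smaller without mouse 9. Without it, the log2 fold change of vismodegib against BCC was 3.69 for the sum (edgeR adjusted p = 0.0048), 5.17 for Serpinb3a (edgeR adjusted p = 0.00235) and 3.42 for Serpinb3b (edgeR adjusted p = 0.00614), and Serpinb3d left the tested genes through the low-count filter. Without mouse 9 the sum differed by 6.31 on the log2 scale between vismodegib and healthy mice (edgeR adjusted p = 8.62e-05) and by -2.73 between AFL and vismodegib mice (edgeR adjusted p = 0.0362). The fall of AFL below vismodegib was lost without AFL mouse 2 (-3.65, edgeR adjusted p = 0.0879) or AFL mouse 7 (-3.79, edgeR adjusted p = 0.0616), and with days since induction as a covariate (-3.14, edgeR adjusted p = 0.131). The difference of BCC from healthy skin passed without vismodegib mouse 6 (2.66, edgeR adjusted p = 0.0318), without vismodegib mouse 9 (2.62, edgeR adjusted p = 0.0231) or without BCC mouse 3 (2.99, edgeR adjusted p = 0.0275).

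The balance of the copies differed between groups as well as their total. Serpinb3a made up 4.72 to 7.07% of the counts of the 4 copies in AFL mice, 18.5 to 35.5% in vismodegib mice, 5.06 to 11.2% in BCC mice and 0.315 to 1.15% in healthy mice. The lowest vismodegib mouse had an interval of 18.1 to 18.9% (Wilson, 95%), and the highest BCC mouse one of 9.82 to 12.8%. Both intervals treat the reads of a mouse as independent and cover counting error alone, not the spread between mice. This share is a ratio within a library and does not depend on how libraries were scaled, and it was not tested because it was chosen after the values were seen. Mouse 9 set the upper end of the vismodegib range. The other 3 vismodegib mice had 29.9, 21.3 and 18.5%, each above all mice of the other groups. How the expected counts split reads that match several copies could affect the share, and the read length is not given in the sources used here.

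**Figure D2:**
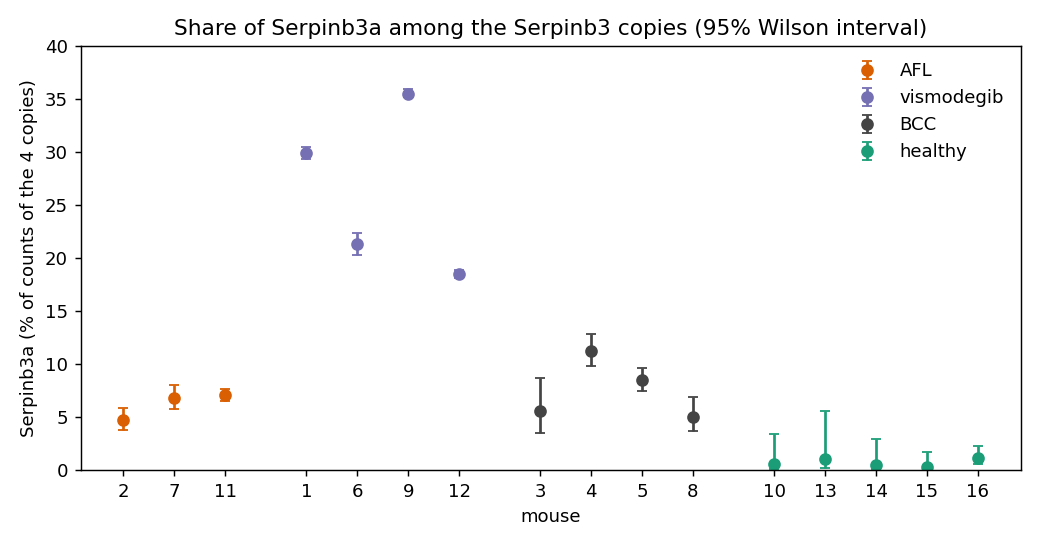
Serpinb3a as a percentage of the counts of the 4 Serpinb3 copies in each mouse, with its 95% Wilson interval, mice ordered by group. The vismodegib mice lie between 18.5 and 35.5%, the AFL and BCC mice between 4.72 and 11.2%, and the healthy mice at or under 1.15%.

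The Serpinb3 copies also took up more of the whole clade. They held 3.40 to 7.15% of the summed clade B CPM in AFL mice, 15.7 to 45.8% in vismodegib mice, 1.70 to 5.25% in BCC mice and 0.437 to 0.931% in healthy mice. Set against Krt14, a keratin of basal keratinocytes, there were 7.31 to 8.59 CPM of Serpinb3 per 1000 CPM of Krt14 in AFL mice, 13.1 to 107 in vismodegib mice, 1.56 to 27.6 in BCC mice and 0.711 to 3.84 in healthy mice. On that scale vismodegib and BCC mice overlapped, because BCC mouse 5 was at 27.6 and vismodegib mouse 6 at 13.1. Krt14 itself rose after vismodegib against BCC (log2 fold change 2.10, SE 0.40, edgeR adjusted p = 0.00286). It was at 3027 CPM in BCC mouse 5 and 14240 CPM in vismodegib mouse 6, so this ratio moves with Krt14 as well as with Serpinb3. Per kilobase of merged exons, Serpinb3b was at 313.2, 86.6, 1268 and 287.5 CPM in vismodegib mice and Serpinb5 at 209.5, 185, 558 and 248 CPM, so Serpinb3b was the higher in 3 of the 4 and Serpinb5 in mouse 6. Serpinb5 had the highest mean level per kilobase of all members in AFL mice (163), BCC mice (150) and healthy mice (126).

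Genes of keratinocytes at wounds were higher in the same mice. The list of 20 wound keratinocyte genes summed to 7397 to 24190 CPM in AFL mice, 27390 to 122000 in vismodegib mice, 3473 to 9920 in BCC mice and 2041 to 7040 in healthy mice. Of its 19 tested genes, 5 rose and 0 fell in AFL against BCC, where 6.10% of all genes rose and 1.65% fell (median log2 fold change 1.36, against -0.04 over all genes), and 13 rose and 0 fell in vismodegib against BCC, where 8.03% of all genes rose and 9.00% fell (median 3.16, against 0.05 over all genes). In each of these, 1 gene fell at an unadjusted p under 0.05 and 1 by DESeq2. Sprr2d, a cornified envelope precursor, was at 1180 ± 684 CPM in vismodegib mice and 8.58 ± 4.54 CPM in BCC mice (SD, n = 4 each; edgeR adjusted p = 0.000109), and Krt16, a keratin of wounded epidermis, at 8150 ± 4830 and 325 ± 156 CPM (edgeR adjusted p = 0.00036). Of the list, Sprr3 was at 0 in AFL mouse 2, vismodegib mouse 1, all 4 BCC mice and 4 healthy mice, and Defb3 or Il24 were at 0 in 4 healthy mice. Differentiated keratinocyte genes summed to 4756 to 18860 CPM in AFL mice, 6329 to 26550 in vismodegib mice, 4989 to 8952 in BCC mice and 3038 to 7427 in healthy mice, and basal keratinocyte genes to 12700 to 23950, 23840 to 44730, 10140 to 18740 and 9699 to 14110 CPM in AFL, vismodegib, BCC and healthy mice. Of the 10 basal genes, 1 rose (Krt14) and 1 fell (Lamb3) in vismodegib against BCC, against 8.03% and 9.00% of all genes (median log2 fold change -0.13). At an unadjusted p under 0.05, 2 were higher and 4 lower, and DESeq2 called 1 rise and 4 falls. Krt14 was at 17400 ± 9240 CPM in vismodegib mice and 4060 ± 1150 CPM in BCC mice (SD), so much of the gap between the basal sums was Krt14. The part of these cell states in the level of Serpinb3 was not tested.

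In the vismodegib and BCC groups, the mouse with growing hair had the lowest Serpinb3. Vismodegib mouse 6 was at 186 CPM for the sum, against 596 to 3337 in the other vismodegib mice, and BCC mouse 3 at 8.83 CPM, against 19.4 to 83.5 in the other BCC mice. The AFL group went the other way. Its mouse 11 had the highest hair score (3.81, against 0.84 and -0.77) and the highest sum (123 CPM, against 52.4 and 60.4). With the hair score as a covariate, the sum rose in vismodegib against BCC (log2 fold change 4.51, SE 0.68, edgeR adjusted p = 0.000576), but not in AFL against healthy skin (1.94, edgeR adjusted p = 0.146), and the difference of BCC from healthy skin was 1.24 (edgeR adjusted p = 0.381). Hair scores were -0.77 to 3.81 in AFL mice and 4.94 to 9.53 in healthy mice, so hair and group cannot be told apart between those groups. The part of growing hair in these levels was not tested.

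**Figure D3:**
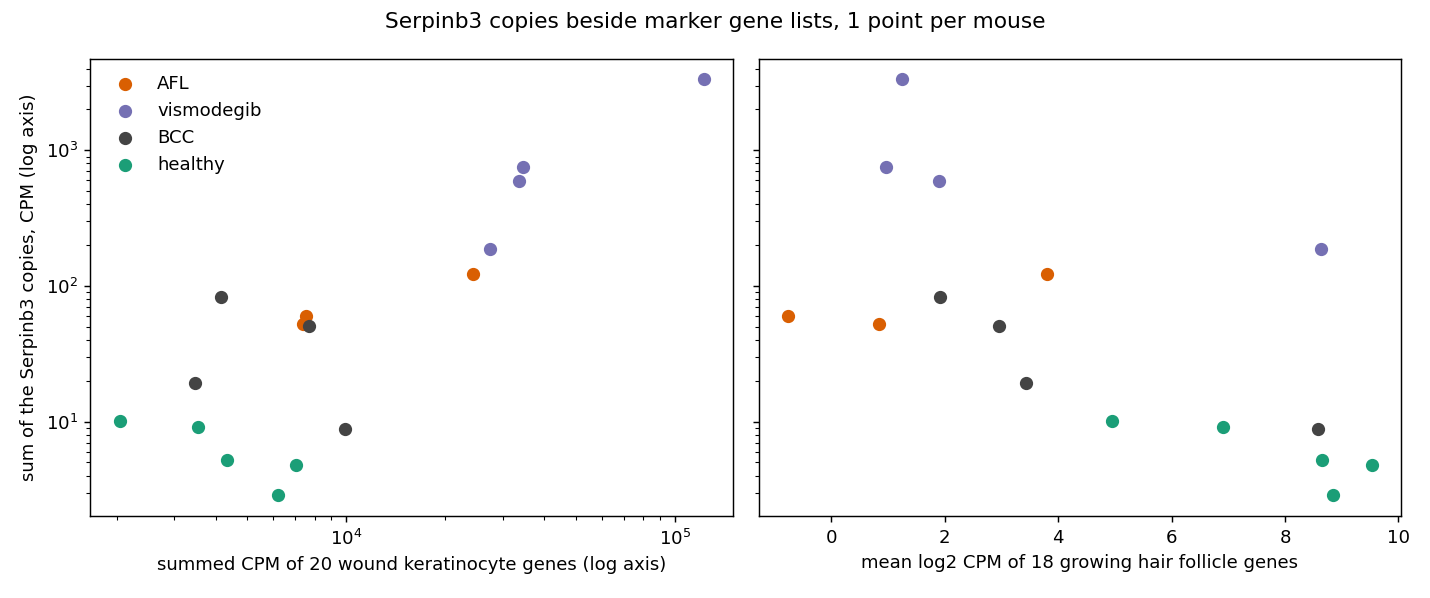
Sum of the Serpinb3 copies in CPM (log axis) against the summed CPM of 20 wound keratinocyte genes (left, log axis) and against the mean log2 CPM of 18 growing hair follicle genes (right), 1 point per mouse, coloured by group. The vismodegib mice hold the right end of the left panel, from 27390 to 122000 CPM, and vismodegib mouse 6 and BCC mouse 3 lie among the healthy mice on the hair axis at 8.64 and 8.58.

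The promoters of the copies are shown because the copies lie side by side and were all higher in the vismodegib group than in the BCC group, at very different levels. The 150 bases before each annotated start are given from RefSeq (GRCm38.p6, minus strand), in lower case with TATAAA, the TATA box, in capitals. In Serpinb3d the motif is on the other strand and reads TTTATA.
Serpinb3a, chr1:107052304-107052453: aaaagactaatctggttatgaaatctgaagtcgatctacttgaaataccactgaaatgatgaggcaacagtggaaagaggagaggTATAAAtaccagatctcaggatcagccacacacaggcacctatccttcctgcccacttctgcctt
Serpinb3b, chr1:107161115-107161264: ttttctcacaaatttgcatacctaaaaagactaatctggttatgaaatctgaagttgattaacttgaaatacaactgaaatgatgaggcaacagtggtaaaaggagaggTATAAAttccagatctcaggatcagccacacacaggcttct
Serpinb3c, chr1:107278372-107278521: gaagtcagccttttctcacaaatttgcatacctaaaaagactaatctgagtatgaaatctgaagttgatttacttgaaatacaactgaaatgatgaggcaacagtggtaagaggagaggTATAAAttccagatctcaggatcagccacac
Serpinb3d, chr1:107083481-107083630: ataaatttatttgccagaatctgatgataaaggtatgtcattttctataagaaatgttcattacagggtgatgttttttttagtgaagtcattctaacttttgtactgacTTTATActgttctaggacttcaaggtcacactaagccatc
Over the 300 bases of the RefSeq promoter table, from 250 before to 50 after the start, Serpinb3b and Serpinb3c were identical at 90.0% of aligned positions, Serpinb3a and Serpinb3b at 79.3%, and Serpinb3a and Serpinb3d at 46.5%. TATAAA on either strand occurred in 13.62% of 32851 promoters of that length, and in 9 of the 21 clade B genes with a promoter in the table (Serpinb12, Serpinb1c, Serpinb2, the 4 Serpinb3 copies, Serpinb6c and Serpinb7). The AP-1 motif TGACTCA, on either strand, occurred in 5.20% of promoters and in those of Serpinb7 and Serpinb8. The GLI motif GACCACCCA, on either strand, occurred in 0.25% of promoters and in no clade B promoter of the table. For each motif the percentage counts promoters, while a member gene is counted if any of its promoters holds the motif, so the numbers are not directly comparable. A match is a description of these letters and not a sign of binding.

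Beyond Serpinb3, 4 further members rose after vismodegib against BCC. In all, 7 of 21 tested members rose (33.3%, against 8.03% of all 15760 genes) and 0 fell (against 9.00% of all genes), and without Serpinb3d 6 of 20 rose. At an unadjusted p under 0.05, 1 member, Serpinb9b, was lower (log2 fold change -1.48, SE 0.57), and DESeq2 called 8 rises and that 1 fall. Over all 15760 genes DESeq2 called 1694 rises and 1977 falls. The median log2 fold change was 1.09 over the members and 0.05 over all genes, and 17 of 21 members had a positive value. In 6 of 21 members every vismodegib mouse was above every BCC mouse (28.6%, against 7.63% of all genes). Both the 17 and the 6 include Serpinb3d, which had 0 counts in all BCC mice. Without mouse 9, 4 members rose, namely Serpinb3a, Serpinb3b, Serpinb11 and Serpinb6c. In that fit 762 of 15734 genes rose and 1001 fell. Scaling by library size alone moved the median of all genes to -0.30 in this comparison, and the rises of Serpinb3a, Serpinb3b, Serpinb6c, Serpinb11 and Serpinb12 passed the test on that scale too. On that scale Serpinb1a did not pass (log2 fold change 1.25, edgeR adjusted p = 0.077), and Serpinb9b was called lower (-1.89, edgeR adjusted p = 0.0268).

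Serpinb6c, a rodent relative of Serpinb6a, was at 19.5, 16.9 and 35.9 CPM in AFL mice, at 30.3, 26.1, 134 and 48.0 CPM in vismodegib mice, at 4.05, 11.5, 10.7 and 3.51 CPM in BCC mice, and at 8.07, 1.20, 1.88, 1.82 and 2.95 CPM in healthy mice. All treated mice were above all BCC and healthy mice. It rose 7.99-fold after vismodegib against BCC (log2 fold change 3.00, SE 0.67, edgeR adjusted p = 0.0073), and 18.7-fold after vismodegib (edgeR adjusted p = 0.000689) and 7.58-fold after AFL (edgeR adjusted p = 0.00682) against healthy skin. The difference of AFL from BCC was 1.69 on the log2 scale (SE 0.67, edgeR adjusted p = 0.151). Without mouse 9 the log2 fold change of vismodegib was 2.25 against BCC (edgeR adjusted p = 0.0245) and 3.45 against healthy skin (edgeR adjusted p = 0.00196). The rise of AFL against healthy skin did not pass with the hair score as a covariate (2.49, edgeR adjusted p = 0.0954).

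Serpinb11, whose mouse form inhibits trypsin-like proteases, set vismodegib apart from the other groups. It was at 14.1, 13.9 and 19.1 CPM in AFL mice, at 35.5, 33.5, 95.3 and 34.8 CPM in vismodegib mice, at 9.36, 12.4, 10.9 and 7.06 CPM in BCC mice, and at 30.9, 13.5, 16.3, 11.8 and 5.26 CPM in healthy mice. It rose 5.01-fold after vismodegib against BCC (log2 fold change 2.32, SE 0.46, edgeR adjusted p = 0.0037) and 3.20-fold against healthy skin (edgeR adjusted p = 0.0191), and it was lower in AFL than in vismodegib mice (log2 fold change -1.66, SE 0.50, edgeR adjusted p = 0.0468). The rise against healthy skin did not pass without mouse 9 (log2 fold change 1.15, edgeR adjusted p = 0.09) or healthy mouse 15 (1.59, edgeR adjusted p = 0.0506). The fall of AFL below vismodegib passed in 12 of 26 alternatives. It was lost with library size alone (-1.30), with 1 library per mouse (-1.49), with days since induction (-1.33), without mouse 9 (-1.17, edgeR adjusted p = 0.105) or vismodegib mouse 1 (-1.79), without any 1 AFL mouse (-1.80 to -1.53, edgeR adjusted p up to 0.176), and without BCC mouse 4, 5 or 8 (-1.69 to -1.61) or healthy mouse 13, 14 or 15 (-1.66 to -1.62).

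Serpinb12, an inhibitor of trypsin-like proteases known from work on the human protein, was high after both treatments. It was at 39.0, 62.8 and 65.5 CPM in AFL mice, at 40.1, 26.8, 147 and 42.5 CPM in vismodegib mice, at 7.12, 20.5, 18 and 7.25 CPM in BCC mice, and at 1.36, 2.65, 3.31, 5.44 and 6.63 CPM in healthy mice. The levels formed steps, with every treated mouse above every BCC mouse and every BCC mouse above every healthy mouse. It rose 4.83-fold after vismodegib (log2 fold change 2.27, SE 0.57, edgeR adjusted p = 0.0143) and 4.22-fold after AFL (log2 fold change 2.08, SE 0.59, edgeR adjusted p = 0.0414) against BCC. AFL and vismodegib differed by -0.20 on the log2 scale (SE 0.59, edgeR adjusted p = 0.859). Against healthy skin it rose 16.4-fold after vismodegib (edgeR adjusted p = 0.000306) and 14.3-fold after AFL (edgeR adjusted p = 0.000332), and the difference of BCC from healthy skin did not pass (log2 fold change 1.76, SE 0.52, edgeR adjusted p = 0.0968). The rise after vismodegib against BCC did not pass without mouse 9 (log2 fold change 1.49, edgeR adjusted p = 0.0514) or BCC mouse 8 (1.99, edgeR adjusted p = 0.0527). Against healthy skin it was 3.22 without mouse 9 (edgeR adjusted p = 0.000515).

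Serpinb1a, the mouse counterpart of human SERPINB1 that inhibits neutrophil elastase and cathepsin G, was at 103, 75.5 and 104 CPM in AFL mice, at 90.0, 57.2, 420.4 and 124 CPM in vismodegib mice, at 25.7, 65.4, 64.5 and 34.4 CPM in BCC mice, and at 16.5, 21, 33.0, 50.5 and 60.1 CPM in healthy mice. Every AFL mouse was above every BCC mouse, but vismodegib mouse 6 lay within the BCC range. It rose 3.64-fold after vismodegib against BCC (log2 fold change 1.86, SE 0.56, edgeR adjusted p = 0.0328). This call was lost without mouse 9 (log2 fold change 0.96, edgeR adjusted p = 0.157), with library size alone (1.25, edgeR adjusted p = 0.077), and when any of the 4 BCC mice was left out (1.66 to 2.06, edgeR adjusted p = 0.0505 to 0.103). Neutrophil markers, the cells whose proteases it inhibits, summed to 184.8 to 1157 CPM in AFL mice, 108 to 428 in vismodegib mice, 37.45 to 101.4 in BCC mice and 50.6 to 99.1 in healthy mice, with Ly6g at 0 in all BCC and healthy mice, and the part of these cells in the level of Serpinb1a was not tested.

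**Figure D4:**
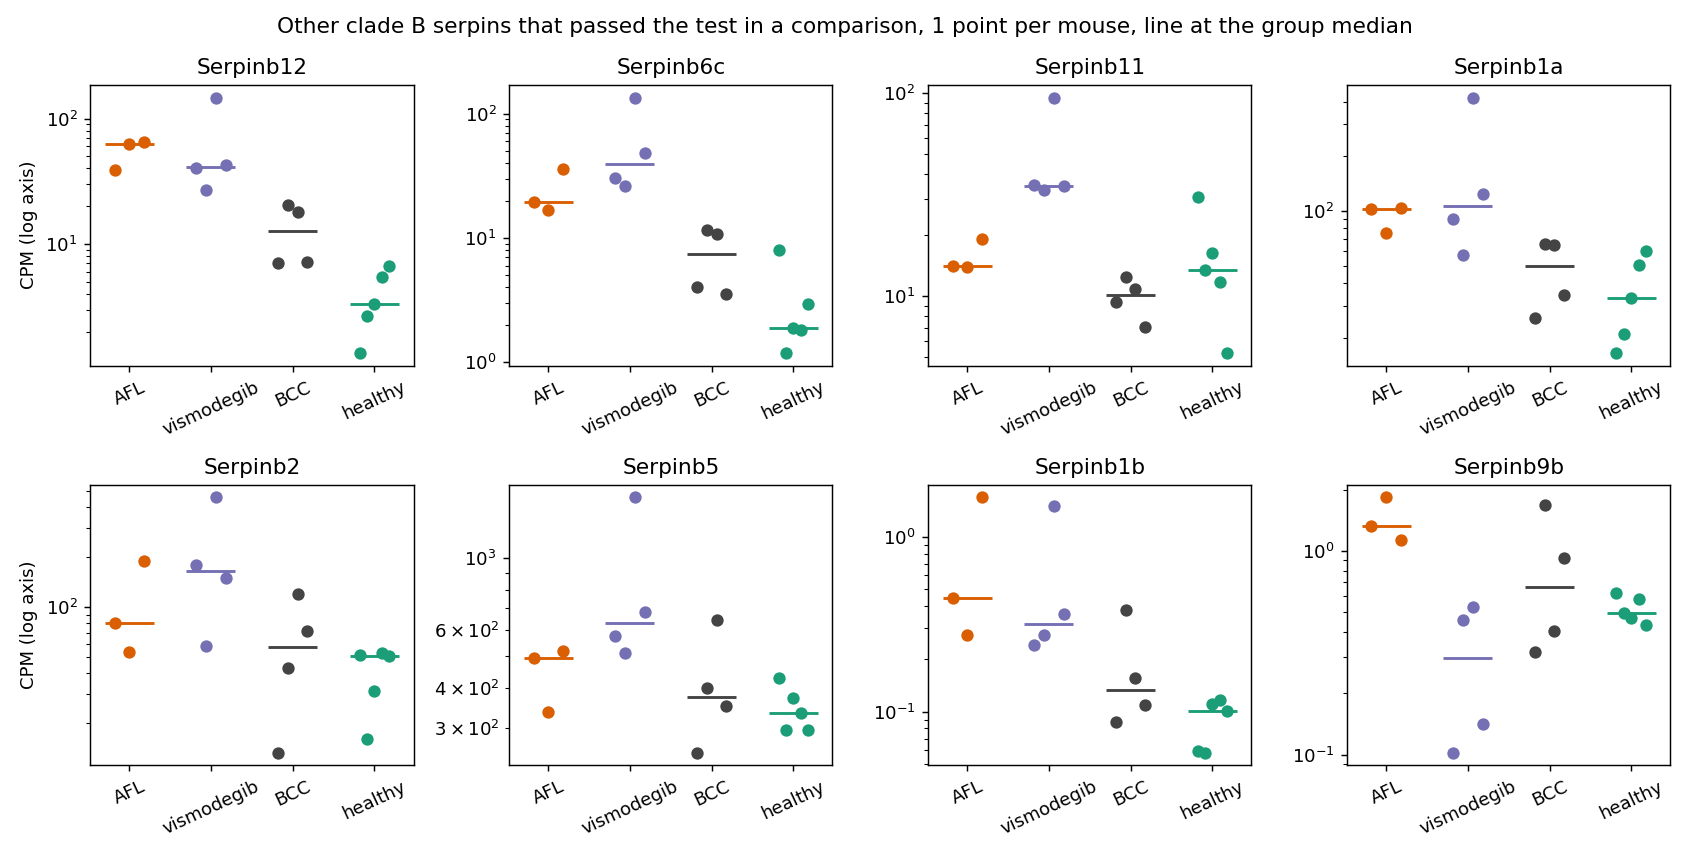
Level in CPM (log axis, own range in each panel) of the 8 clade B genes outside Serpinb3 that passed the test in at least 1 comparison, 1 point per mouse, with a line at the group median. Serpinb12 and Serpinb6c are above all BCC and healthy mice after both treatments, Serpinb11 is highest after vismodegib, at 33.5 to 95.3 CPM, and Serpinb9b is lowest after vismodegib in its median.

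After AFL, a single member passed against BCC. Of 21 tested members 1, Serpinb12, rose against BCC (4.76%, against 6.10% of all genes) and 0 fell (against 1.65% of all genes), a share near the background. At an unadjusted p under 0.05, 5 were higher and 0 lower, and DESeq2 called 1 rise and 0 falls. Among all 15760 genes it called 1245 rises and 732 falls. In 6 of 21 members every AFL mouse was above every BCC mouse (28.6%, against 11.5% of all genes), namely Serpinb6a, Serpinb9, Serpinb1a, Serpinb11, Serpinb12 and Serpinb6c. The median log2 fold change was 0.66 over the members and -0.04 over all genes. With library size alone the median of all genes was -0.18. The rise of Serpinb12 did not pass with days since induction as a covariate in induced mice alone (log2 fold change 2.61, SE 0.81, edgeR adjusted p = 0.0943). Those days do not overlap between AFL and BCC mice, so that fit cannot separate them from the group. The call was also lost when AFL mouse 7 or 11, BCC mouse 3, 5 or 8, or healthy mouse 13 or 14 was left out (1.85 to 2.23). The adjusted p of Serpinb12 ranged from 0.0082 to 0.155 over 26 alternatives in edgeR and DESeq2. Without vismodegib mouse 9, Serpinb1b (log2 fold change 2.13, edgeR adjusted p = 0.035) and Serpinb6a (1.16, edgeR adjusted p = 0.0452) passed as well.

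Serpinb6a and Serpinb9 were higher in every AFL mouse than in every BCC mouse, without passing the test in all mice. Serpinb6a, the mouse counterpart of the human cathepsin G inhibitor SERPINB6, was at 476 to 546 CPM in AFL mice, 193 to 894 in vismodegib mice and 118 to 326 in BCC mice (AFL against BCC, log2 fold change 1.17, SE 0.49, edgeR adjusted p = 0.181). Serpinb9, an inhibitor of granzyme B, was at 19.4 to 32.3 CPM in AFL mice, 4.69 to 32.9 in vismodegib mice and 5.04 to 17.7 in BCC mice (AFL against BCC, log2 fold change 1.10, SE 0.54, edgeR adjusted p = 0.268). Serpinb6a and Serpinb9 were singled out after their values were seen. Serpinb9b, a mouse relative of Serpinb9, was at 1.33, 1.83 and 1.13 CPM in AFL mice, 0.102, 0.457, 0.531 and 0.141 CPM in vismodegib mice, 0.319, 1.67, 0.404 and 0.926 CPM in BCC mice, and 0.621, 0.496, 0.469, 0.579 and 0.434 CPM in healthy mice. All AFL mice were above all vismodegib mice, and Serpinb9b was 4.80-fold higher in AFL than in vismodegib mice (log2 fold change 2.26, SE 0.60, edgeR adjusted p = 0.0266). It lost that call with 1 library per mouse, with days since induction, and without AFL mouse 2 or 7 or vismodegib mouse 1 or 12 (1.98 to 2.53 over these, edgeR adjusted p up to 0.118). Macrophage markers were at 3714 to 5263 CPM in sum in AFL mice, 734.4 to 2797 in vismodegib mice and 380.7 to 738.8 in BCC mice, and their part in these levels was not tested.

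Compared directly, AFL was above vismodegib for 1 of 21 members (Serpinb9b; 4.76%, against 6.69% of all genes) and below it for 3 (Serpinb3a, Serpinb3b and Serpinb11; 14.3%, against 2.46% of all genes). The mice of both groups did not overlap for these 4 genes (1 higher, against 13.0% of all genes, and 3 lower, against 9.24%). Serpinb3a was 76.0-fold higher in vismodegib than in AFL mice (AFL against vismodegib, log2 fold change -6.25, SE 1.26, edgeR adjusted p = 0.00644), and Serpinb3b 11.2-fold (-3.49, SE 0.88, edgeR adjusted p = 0.0216). Without mouse 9 these were -4.63 (edgeR adjusted p = 0.00782) and -2.42 (edgeR adjusted p = 0.0498). Serpinb3b did not pass without AFL mouse 2 (-3.20, edgeR adjusted p = 0.11) or AFL mouse 7 (-3.33, edgeR adjusted p = 0.0734), when 1 of the 4 calls, Serpinb3a, was left, and without vismodegib mouse 1 the calls of Serpinb3a and Serpinb3b were left. With days since induction as a covariate among induced mice, 0 of the 4 calls remained. Library size alone moved the median of all genes to 0.16 here, from -0.06.

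In BCC against healthy skin, 1 of 21 members rose (4.76%, against 2.66% of all genes) and 0 fell (against 0.159% of all genes). At an unadjusted p under 0.05, 4 were higher and 0 lower, and DESeq2 called 3 rises and 0 falls. Among all 15760 genes it called 735 rises and 176 falls. Every BCC mouse was above every healthy mouse for 2 members, Serpinb3a and Serpinb12 (9.52%, against 5.18% of all genes). Serpinb3b had a log2 fold change of 2.54 (SE 0.69, edgeR adjusted p = 0.0666). Without vismodegib mouse 9, Serpinb3b (2.50, edgeR adjusted p = 0.0258) and Serpinb12 (1.73, edgeR adjusted p = 0.0308) passed too, and without vismodegib mouse 6 or BCC mouse 3 Serpinb3b did. Adding the hair score as a covariate left Serpinb3a as the single rise, with falls of Serpinb7 (-1.66, edgeR adjusted p = 0.0314), Serpinb1c (-1.99, edgeR adjusted p = 0.0435) and Serpinb6e (-2.42, edgeR adjusted p = 0.0353). With that covariate 601 of 15760 genes fell, against 25 without it. Apart from BCC mouse 3 (8.58), BCC mice had hair scores of 1.91 to 3.44, against 4.94 to 9.53 in healthy mice. Hair and group are therefore hard to tell apart here too.

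**Figure D5:**
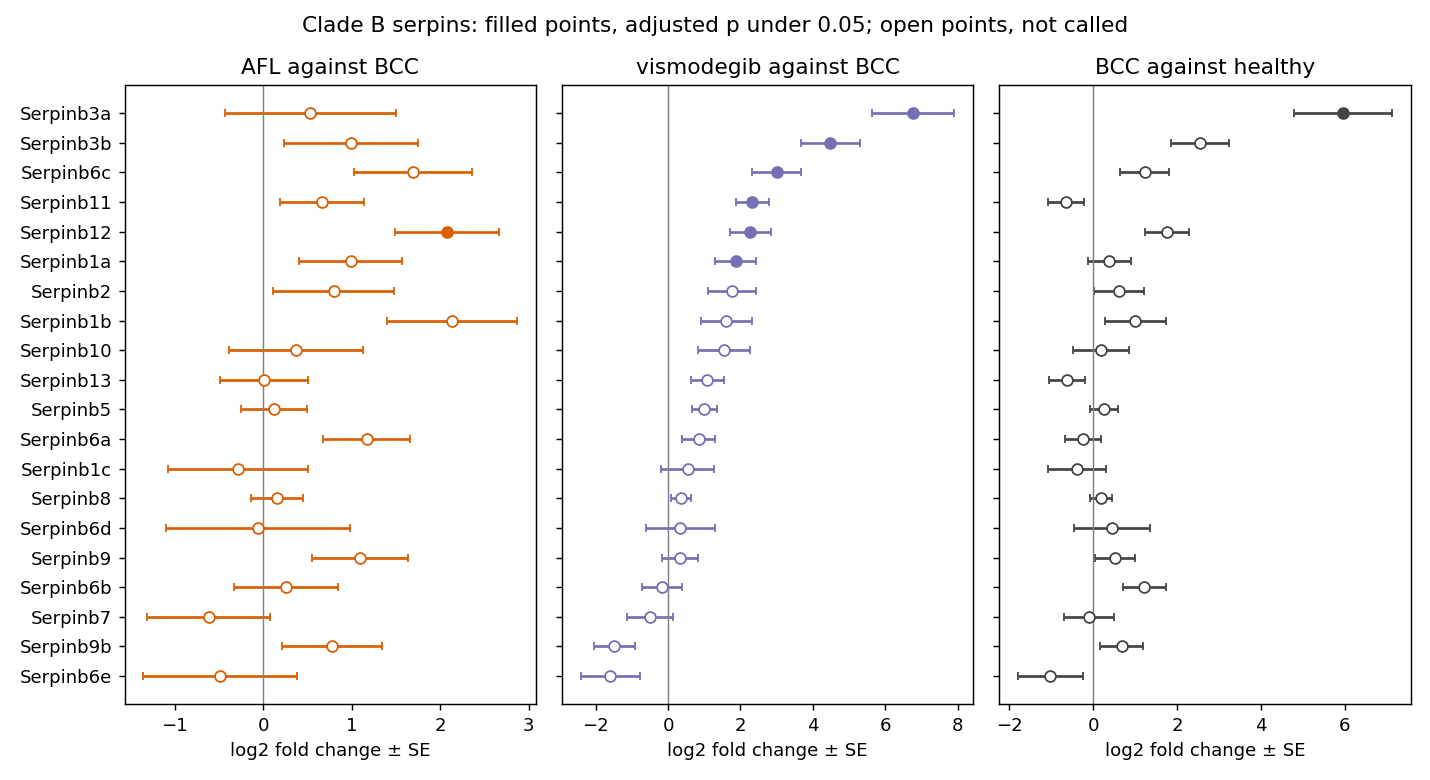
Log2 fold change ± SE of 20 tested members in AFL against BCC, vismodegib against BCC and BCC against healthy skin, filled where the edgeR adjusted p was under 0.05. Serpinb3d is left out because it had 0 counts in BCC mice. The filled points are Serpinb12 in the left panel, 6 members in the middle panel and Serpinb3a in the right panel.

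Against healthy skin, the members that passed after either treatment all rose in the fit without covariates. After AFL, 5 of 21 members rose (23.8%, against 7.95% of all genes) and 0 fell (against 1.29%), namely Serpinb3a, Serpinb3b, Serpinb12, Serpinb6c and Serpinb1b, and in 12 members every AFL mouse was above every healthy mouse (57.1%, against 14.7% of all genes). After vismodegib, 10 rose (47.6%, against 7.58% of all genes; 9 of 20 without Serpinb3d) and 0 fell (against 4.07%), and in 9 the mice did not overlap (42.9%, against 9.33%). The counts after both treatments include Serpinb1b, which passed the low-count filter only through the treated mice. Serpinb3d is also among the 9 members without overlap after vismodegib. Falls at an unadjusted p under 0.05 numbered 0 after AFL and 1 after vismodegib (Serpinb6e), and DESeq2 called the same 0 and 1. Its falls among all 15760 genes numbered 865 after AFL and 1343 after vismodegib. The median log2 fold change was 1.38 after AFL and 1.26 after vismodegib, against 0.01 and 0.02 over all genes. With library size alone the median of all genes was -0.25 in vismodegib against healthy skin. Without mouse 9, 4 members rose after vismodegib, namely Serpinb3a, Serpinb3b, Serpinb12 and Serpinb6c, while 694 of 15734 genes rose. With the hair score as a covariate, 3 members fell after AFL and the same 3 after vismodegib. Falls over all 15760 genes also became more frequent with this covariate. They numbered 555 after AFL and 1288 after vismodegib, against 203 and 642 without it. Every AFL mouse had a lower hair score than every healthy mouse, so hair and group cannot be told apart between them. Serpinb7 was at -2.98 (edgeR adjusted p = 0.00364) and -2.41 (edgeR adjusted p = 0.00437), Serpinb1c at -3.38 (edgeR adjusted p = 0.0112) and -2.12 (edgeR adjusted p = 0.042), and Serpinb6e at -4.15 (edgeR adjusted p = 0.0101) and -4.39 (edgeR adjusted p = 0.00188) on the log2 scale, AFL given before vismodegib. In that fit the rises of Serpinb3b, Serpinb6c and Serpinb1b after AFL, and of Serpinb1a, Serpinb1b, Serpinb2, Serpinb5 and Serpinb3d after vismodegib, did not pass.

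Members that passed in these comparisons alone were Serpinb1b, Serpinb2 and Serpinb5. Serpinb2 is the urokinase inhibitor known as PAI-2 and a stress gene of keratinocytes. It was at 80.7, 53.9 and 188 CPM in AFL mice, at 180, 58.3, 456 and 149 CPM in vismodegib mice, at 13.3, 43.2, 120 and 71.7 CPM in BCC mice, and at 51.5, 16.1, 31.3, 52.9 and 51.0 CPM in healthy mice. It rose 5.19-fold after vismodegib against healthy skin (edgeR adjusted p = 0.0231), but not without mouse 9 (log2 fold change 1.66, edgeR adjusted p = 0.111), without healthy mouse 13 or 14 (2.17 and 2.23) or with the hair score (1.15, edgeR adjusted p = 0.296), and vismodegib and BCC mice overlapped. Serpinb5, or maspin, does not inhibit proteases in the usual way and is a marker of epithelial cells. It was at 494, 336 and 518 CPM in AFL mice, at 576, 509.6, 1534 and 683 CPM in vismodegib mice, at 253, 399.9, 646 and 351 CPM in BCC mice, and at 427, 296, 372, 334 and 296 CPM in healthy mice. AFL, BCC and healthy mice overlapped. Its rise after vismodegib against healthy skin was 2.39-fold (edgeR adjusted p = 0.0239), and passed in 17 of 25 alternatives. It did not pass without mouse 9 (log2 fold change 0.77, edgeR adjusted p = 0.0821), with library size alone (0.85, edgeR adjusted p = 0.0646), with the hair score (0.85, edgeR adjusted p = 0.179) or without healthy mouse 13, 14, 15 or 16 (1.21 to 1.25, edgeR adjusted p = 0.0506 to 0.0611).

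Serpinb1b, a paralog of Serpinb1a, was rare, with 131 counts in AFL mice, 67 in vismodegib mice, 25 in BCC mice and 19 in healthy mice. It was at 0.444, 0.274 and 1.67 CPM in AFL mice, at 0.239, 0.274, 1.49 and 0.361 CPM in vismodegib mice, at 0.0869, 0.382, 0.155 and 0.109 CPM in BCC mice, and at 0.0591, 0.0583, 0.110 and 0.116 CPM in the first 4 healthy mice, with 0.101 CPM in the fifth. Treated mice were above healthy mice throughout. It rose 8.77-fold after AFL (edgeR adjusted p = 0.00922) and 6.12-fold after vismodegib (edgeR adjusted p = 0.026) against healthy skin. Serpinb1b passed the low-count filter only through the treated mice, so both calls are given as a description. The rise after AFL did not pass without AFL mouse 11 (log2 fold change 1.92, edgeR adjusted p = 0.197) or with the hair score (2.92, edgeR adjusted p = 0.0606). The rise after vismodegib passed in 16 of 24 alternatives, and did not pass without mouse 9 (1.68, edgeR adjusted p = 0.125), with the hair score (2.36, edgeR adjusted p = 0.0953) or without any 1 of the 5 healthy mice (2.45 to 2.71, edgeR adjusted p = 0.0508 to 0.059).

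The other 10 tested members passed in none of the 6 comparisons by edgeR. They are Serpinb6a and Serpinb9, given above, and Serpinb6b, Serpinb6d, Serpinb6e, Serpinb7, Serpinb8, Serpinb10, Serpinb13 and Serpinb1c. Serpinb8, which in humans inhibits furin, was at 39.3 to 107 CPM over all 16 mice. Serpinb7, whose loss in humans causes a thickening of palm and sole skin, was at 11.5 to 66.5 CPM in treated mice, 10.8 to 136 in BCC mice and 27.6 to 113 in healthy mice. Serpinb10, known from human bone marrow cells, was at 4.35 to 68.9 CPM in vismodegib mice and 1.59 to 17.6 in BCC mice. Serpinb13, which in humans inhibits cathepsins L and K, was at 0.790 to 4.30 CPM over all mice. Serpinb6b and Serpinb1c, relatives of Serpinb6a and Serpinb1a, were at 0.887 to 8.18 and 0.335 to 7.17 CPM over all mice. Serpinb6e, singled out after its values were seen, was at 1.07 to 7.31 CPM in vismodegib mice against 4.75 to 47.0 CPM in healthy mice (log2 fold change -2.62, SE 0.83, edgeR adjusted p = 0.0503). Serpinb6d was at 0.984 to 45.2 CPM over all mice and varied most between libraries of a single mouse, with a 5.97-fold gap between both libraries of healthy mouse 16, against 1.26-fold for the Serpinb3 copies in that mouse. Between the libraries of AFL mouse 11 the gap was 1.54-fold for the Serpinb3 copies and 2.08-fold for Serpinb12. Serpinb9e had 42 counts in AFL mice and 11 in vismodegib mice, against 0 in BCC mice and 1 in healthy mice. Most of its AFL counts came from mouse 11, at 0.636 CPM, against 0.0317 CPM in AFL mouse 2 and 0 in AFL mouse 7.

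Some proteases of the kinds that clade B serpins act on rose after each treatment. Of 28 tested target proteases, 10 rose and 0 fell in AFL against BCC, where 6.10% of all genes rose and 1.65% fell (1 of the 28 fell at an unadjusted p under 0.05 and 1 by DESeq2; median log2 fold change 0.76), led by the lysosomal cathepsins Ctsl at 1690 ± 274 CPM in AFL mice (n = 3) and 296 ± 18.7 CPM in BCC mice (SD, n = 4; edgeR adjusted p = 1.97e-05) and Ctsb at 4320 ± 138 and 1060 ± 281 CPM (edgeR adjusted p = 0.000232). In vismodegib against BCC 10 rose and 1 fell, where 8.03% of all genes rose and 9.00% fell (median 0.79), led by the epidermal kallikreins Klk14 at 8.46 ± 4.82 CPM in vismodegib mice and 1.10 ± 0.42 CPM in BCC mice (SD, n = 4 each; edgeR adjusted p = 0.0015) and Klk13 at 94.1 ± 72.5 and 7.35 ± 4.69 CPM (edgeR adjusted p = 0.00265). In AFL against vismodegib 7 rose and 2 fell, where 6.69% of all genes rose and 2.46% fell (median -0.08), with Ctsl higher (log2 fold change 1.75, edgeR adjusted p = 0.000307) and Ctsz higher (1.53, edgeR adjusted p = 0.000984) in AFL. Each of these counts of rises includes Gzma, which was at 0.0297 CPM in BCC mice and 0.093 CPM in healthy mice. Gzma passed the low-count filter only through the treated mice, so its calls are given as a description. In BCC against healthy skin, where 2.66% of all genes rose and 0.159% fell, 0 of 28 passed in edgeR, while 6 had an unadjusted p under 0.05 and DESeq2 called 2. The macrophage markers given above were also higher in AFL than in BCC mice (3714 to 5263 against 380.7 to 738.8 CPM in sum). Their part in the protease levels was not tested.

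Of 15 other protease inhibitors of the epidermis that were tested, 7 rose and 0 fell in vismodegib against BCC, against 8.03% and 9.00% of all genes (0 fell also at an unadjusted p under 0.05 and by DESeq2; median log2 fold change 1.47), among them Wfdc12, a small secreted inhibitor, at 8.71 ± 5.50 CPM in vismodegib mice and 0.579 ± 0.341 CPM in BCC mice (SD, n = 4 each; edgeR adjusted p = 0.000877), and Stfa3, a stefin that inhibits cathepsins, at 1940 ± 2570 and 36.9 ± 26.4 CPM (edgeR adjusted p = 0.00116). In AFL against BCC 2 rose and 0 fell, against 6.10% and 1.65% of all genes (1 fell at an unadjusted p under 0.05 and 1 by DESeq2; median 0.56), Wfdc12 at 9.45 ± 3.39 CPM in AFL mice (n = 3; edgeR adjusted p = 0.000639) and Stfa2l1 at 26.3 ± 42.6 CPM (n = 3; edgeR adjusted p = 0.0056). Stfa2l1 was at 0.17 ± 0.084 CPM in BCC mice (SD), and its SD in AFL mice was above its mean. Both counts of rises against BCC include it. Stfa2l1 passed the low-count filter only through the treated mice, so its calls are given as a description. In AFL against vismodegib 0 rose (also 0 at an unadjusted p under 0.05 and by DESeq2) and 2 fell, against 6.69% and 2.46% of all genes (median -0.90), namely Csta1 (log2 fold change -2.51, edgeR adjusted p = 0.0279) and Stfa3 (-3.45, edgeR adjusted p = 0.0302). In BCC against healthy skin 2 rose and 0 fell, against 2.66% and 0.159% of all genes (0 fell also at an unadjusted p under 0.05 and by DESeq2; median 0.04), Stfa3 (4.03, edgeR adjusted p = 0.00775) and the elastase inhibitor Slpi (3.36, edgeR adjusted p = 0.0391).

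Of 22 tested serpins of other clades, which are mostly secreted, 2 rose and 4 fell in vismodegib against BCC, against 8.03% and 9.00% of all genes (median log2 fold change 0.02), with Serpina3n higher (1.84, edgeR adjusted p = 0.0018) and Serpini1 lower (-3.09, edgeR adjusted p = 0.0053). In AFL against BCC 5 rose and 0 fell, against 6.10% and 1.65% of all genes (3 fell at an unadjusted p under 0.05 and 1 by DESeq2; median 0.55), among them Serpina3g (2.39, edgeR adjusted p = 0.00268). In AFL against vismodegib 5 rose and 0 fell, against 6.69% and 2.46% of all genes (1 fell at an unadjusted p under 0.05 and 0 by DESeq2), among them Serpina3g (2.85, edgeR adjusted p = 0.00111). In BCC against healthy skin 2 rose and 0 fell, against 2.66% and 0.159% of all genes (4 fell at an unadjusted p under 0.05 and 1 by DESeq2), namely Serpina9 (3.62, edgeR adjusted p = 0.000371) and Serpini1 (2.35, edgeR adjusted p = 0.0371). Whether these serpins differed from clade B was not tested.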

How the data were processed

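The authors deposited a table of RSEM expected counts for poly-A libraries of mouse skin, made with Bowtie2 and RSEM against GRCm39 per the submitters' processing notes. Not given in the sources used here: versions, annotation, strand setting and read length. Reads of near-identical copies or of antisense partners may therefore be split or mixed. Here the values were rounded to integers (3.42% were not whole), and both libraries of mice 11, 12 and 16 were summed, so that the mouse was the replicate. The labels give ages of 128 and 135 days to the libraries of healthy mouse 16.

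Genes were filtered with filterByExpr by group (15760 kept, 2761 removed). All mice entered a single quasi-likelihood fit with TMM scaling in edgeR 4.0.16 (R 4.3.3), with group as the term, and common dispersion was 0.178. P-values were adjusted by Benjamini-Hochberg over all genes, with a threshold of 0.05. "Rose", "fell" and "passed" refer to that test. Percentages of all genes that rose or fell come from this fit, and none is given for an unadjusted p under 0.05. The fit was also run on simulated counts with a single dispersion of 0.178, equal rises in all vismodegib mice and no outlying mouse. That run cannot show how the fit handles a mouse such as vismodegib mouse 9. The Serpinb3 copies were also fitted as a single gene. Log2 fold changes have their SE, and CPM uses TMM-scaled sizes. A floor of 3 counts over a group gave lower bounds. Depth was 27185921 to 33556611 counts per library.

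The fit was repeated with DESeq2 1.42.0, with library sizes scaled by RLE or not at all, without a filter or with at least 1 CPM in 3 mice, with the 19 libraries unsummed, with 1 library per mouse, with a replicate block, with hair or induction-day covariates, and without each mouse in turn. Sequences came from GENCODE M21 transcripts and RefSeq promoters, both on GRCm38, and no coordinate was carried to the files' build. The members and gene lists were chosen with earlier results of these data known. Per-mouse values are given for members that passed in at least 1 comparison. Of each list the genes with the smallest p are named, and not every gene that this rule takes is reported.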

Additional observations from a re-analysis of the deposited data

Results flagged for a closer look

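In groups of 4 or 5 mice, 14 of 70 tests found a mouse far from the others by Dixon's criterion. Independent values with a normal spread would give about 3.5. The tests used CPM without a log scale and took in both the Serpinb3 copies and their sum, so no excess over chance can be read from the count. Vismodegib mouse 9 was the far, highest mouse for 9 genes. Its levels were 1190 CPM for Serpinb3a (next highest 226), 2.92 for Serpinb3c (next 0.410), 8.18 for Serpinb3d (next 0.376), 95.3 for Serpinb11 (next 35.4), 147 for Serpinb12 (next 42.5), 1.49 for Serpinb1b (next 0.362), 1530 for Serpinb5 (next 683), 894 for Serpinb6a (next 278) and 0.266 for Serpinb9e (next 0.0683). The same mouse had the smallest TMM factor (0.591) and the highest sum of wound keratinocyte genes (122000 CPM). The part of these in its serpin levels was not tested.

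Among healthy mice, mouse 16 was highest for Serpinb3a (0.116 CPM) and Serpinb3d (0.0145 CPM), mouse 10 for Serpinb6c (8.07 CPM, next 2.95) and mouse 13 for Serpinb9e (0.0292 CPM). Among BCC mice, mouse 8 alone had Serpinb3c (0.0272 CPM). The values of Serpinb3c, Serpinb3d and Serpinb9e in these healthy and BCC mice rest on very few counts.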

How the results depend on the processing

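With 3 to 5 mice per group, single mice moved the count of members called. Leaving out each mouse gave 0 to 3 members in AFL against BCC (main value 1), 4 to 10 in vismodegib against BCC (7), 1 to 3 in BCC against healthy skin (1), 1 to 4 in AFL against vismodegib (4), 4 to 7 in AFL against healthy skin (5) and 4 to 12 in vismodegib against healthy skin (10). In AFL against BCC, 2 were called with no low-count filter and 3 with all 19 libraries. In BCC against healthy skin, 3 were called by DESeq2, 3 with library size alone, 2 with all 19 libraries and 4 with the hair covariate. In AFL against vismodegib, 2 were called with 1 library per mouse and 0 with days since induction. In AFL against healthy skin, 8 were called with all 19 libraries. For the Serpinb3 sum, BCC against healthy skin passed by DESeq2 (2.69), with library size alone (2.78) and with all 19 libraries (2.53), and ranged from 2.07 to 2.99 over mice left out. AFL against vismodegib did not pass with days since induction (-3.14) and ranged from -4.39 to -2.73, and AFL against healthy skin did not pass with the hair covariate (1.94). The causes were not tested.

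Of genes that did not pass, the difference of Serpinb7 in BCC against healthy skin turned to 0.04 with library size alone, 0.013 with 1 library per mouse, 0.002 with the replicate block, and lay between -0.673 and 0.263 over mice left out. Serpinb10 in vismodegib against healthy skin turned to -0.195 with the hair covariate. Serpinb1c there turned to -0.326 with library size alone, -0.146 with all 19 libraries, -2.12 with the hair covariate, and lay between -0.627 and 0.539 over mice left out.

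Replicate numbers of the labels were checked on deviations from group means over the 1000 most variable genes. Vismodegib mouse 6 and BCC mouse 3, both with growing hair and with different numbers, correlated at 0.847. Growing hair differed between mice of a group, so this measure cannot settle whether the numbers pair the mice. Deviations of same-numbered mice correlated between -0.609 and 0.628 over 21 pairs, with 6 pairs over 0.1, and 4 mice correlated best with their own number. With the replicate block 1, 7, 1, 4, 7 and 8 members were called in the 6 comparisons in the order above, and Serpinb1b and Serpinb5 lost their calls in vismodegib against healthy skin.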
